A study of Mus musculus with 16 samples.

Results

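The genes described here are 10 transcripts used to recognise mural cells, the pericytes and smooth muscle cells that wrap blood vessels. They were the rows named Acta2, Tagln, Myh11, Notch3, Pdgfrb, Cspg4, Mcam, Rgs5, Kcnj8 and Abcc9, chosen by name from 54532 genes in the deposited tables. All 10 were found and all 10 passed the filter on low counts in every comparison. The RNA came from gonadal white fat of female mice of the inbred strain C57BL/6. The title names single cells, but the deposited tables give 1 column of counts per library, so the data were read as bulk sequencing.

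MS mice went through maternal separation and early weaning, a model of early life stress in which pups are taken from the dam daily and weaned ahead of time, and C mice were undisturbed controls. HF and LF stand for a high-fat and a low-fat diet, A for the mature adipocyte fraction and P for preadipocytes. The 16 libraries comprised 3 MS_HF_A, 3 C_HF_A, 4 MS_HF_P, 4 C_HF_P, 1 MS_LF_P and 1 C_LF_P library. Both fractions came from collagenase digestion, centrifugation, filtration and magnetic sorting, but neither the sort's antibodies nor the age of the mice is stated in the labels. No label ties a library to an animal, so each p-value reflects the spread between libraries, which may be technical.

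Mural cells form the contractile outer layer of blood vessels. Smooth muscle cells of arteries carry a dense actin and myosin apparatus, whereas pericytes of capillaries carry less of it and are recognised by surface receptors, the signalling regulator Rgs5 and a potassium channel. Platelet-derived growth factor made by endothelial cells recruits mural cells through the receptor encoded by Pdgfrb, and Notch3 keeps them differentiated. In fat, Pdgfrb is also carried by fibroblast-like adipocyte progenitors, and cells of the perivascular niche have been studied as a source of adipocytes.

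The libraries held 14182130 to 23368821 counts. C_HF_P libraries 1 and 3 differed in 6.93% of genes, against 43.9% to 78.6% in the other 17 pairs of libraries of a group, so they were counted as 1 sample. Summed FPKM (fragments scaled by gene length and by library depth, a per-length level) of 10 adipocyte progenitor markers was 161 to 340 in adipocyte libraries and 1812 to 4704 in preadipocyte libraries. The 8 mature adipocyte markers summed to 6971 to 30265 FPKM in adipocyte libraries and 28.2 to 253 FPKM in preadipocyte libraries. Neither fraction was free of other cells. The 12 endothelial markers summed to 218 to 855 FPKM in adipocyte libraries and 52.3 to 255 FPKM in preadipocyte libraries, and 8 macrophage markers to 843 to 2868 FPKM in adipocyte libraries and 591 to 3508 FPKM in preadipocyte libraries.

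The promoters of 2 members are shown from RefSeq (GRCm38.p6), which held 7 of the 10 genes. Acta2, on the minus strand of chromosome 19, is shown because a CArG box, the binding motif of serum response factor, is a known element of smooth muscle promoters. Capitals mark 2 matches to that motif with at most 1 mismatch, read on both strands and starting 84 and 34 bases before the start site. Mcam, on the plus strand of chromosome 9, is shown because an RNA gene on the other strand, Gm10687, starts inside its first exon in the GENCODE M21 annotation. Capitals there mark the 17 bases that the exons of both genes share, upstream of the start site RefSeq gives.
Acta2, chr19:34255324-34255623: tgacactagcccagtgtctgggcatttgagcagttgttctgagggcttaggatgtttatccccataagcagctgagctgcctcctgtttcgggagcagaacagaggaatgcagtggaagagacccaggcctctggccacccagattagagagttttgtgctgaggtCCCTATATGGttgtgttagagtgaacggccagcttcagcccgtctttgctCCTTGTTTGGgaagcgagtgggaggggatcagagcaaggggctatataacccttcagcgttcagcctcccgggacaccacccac
Mcam, chr9:44134408-44134707: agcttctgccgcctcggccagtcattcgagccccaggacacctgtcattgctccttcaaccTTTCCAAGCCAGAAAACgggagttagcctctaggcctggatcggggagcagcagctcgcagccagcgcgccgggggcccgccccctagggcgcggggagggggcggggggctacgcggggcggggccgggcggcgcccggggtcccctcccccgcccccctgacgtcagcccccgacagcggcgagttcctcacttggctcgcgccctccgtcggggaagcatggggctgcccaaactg
A CArG match of this kind was present in 21.1% of all 32851 promoters of the same 300 bases. Among the members it was in the promoters of Acta2, Cspg4 and Kcnj8, and these letters were not found in those of Notch3, Mcam, Rgs5 and Abcc9.

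Mature adipocyte and preadipocyte libraries on the high-fat diet differed in 5 of the 10 genes. Mcam, Acta2, Cspg4 and Kcnj8 were higher in the adipocyte fraction and Pdgfrb was lower. The other 5 genes (Tagln, Myh11, Notch3, Rgs5 and Abcc9) did not pass the test. The fractions differed over most of the transcriptome, with 61.3% of 16679 tested genes called, 26.4% higher and 35% lower in adipocytes (edgeR quasi-likelihood test with Benjamini-Hochberg adjustment, threshold 0.05). Over both directions together the members' share therefore did not exceed the background. By direction, 4 of the 10 were higher and 1 was lower, and the difference from the shares of all genes was not tested. The median log2 fold change was 0.75 over the 10 genes and -0.25 over all genes tested. In bulk libraries, fewer cells of a type and less RNA per cell cannot be told apart.

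**Figure D1:**
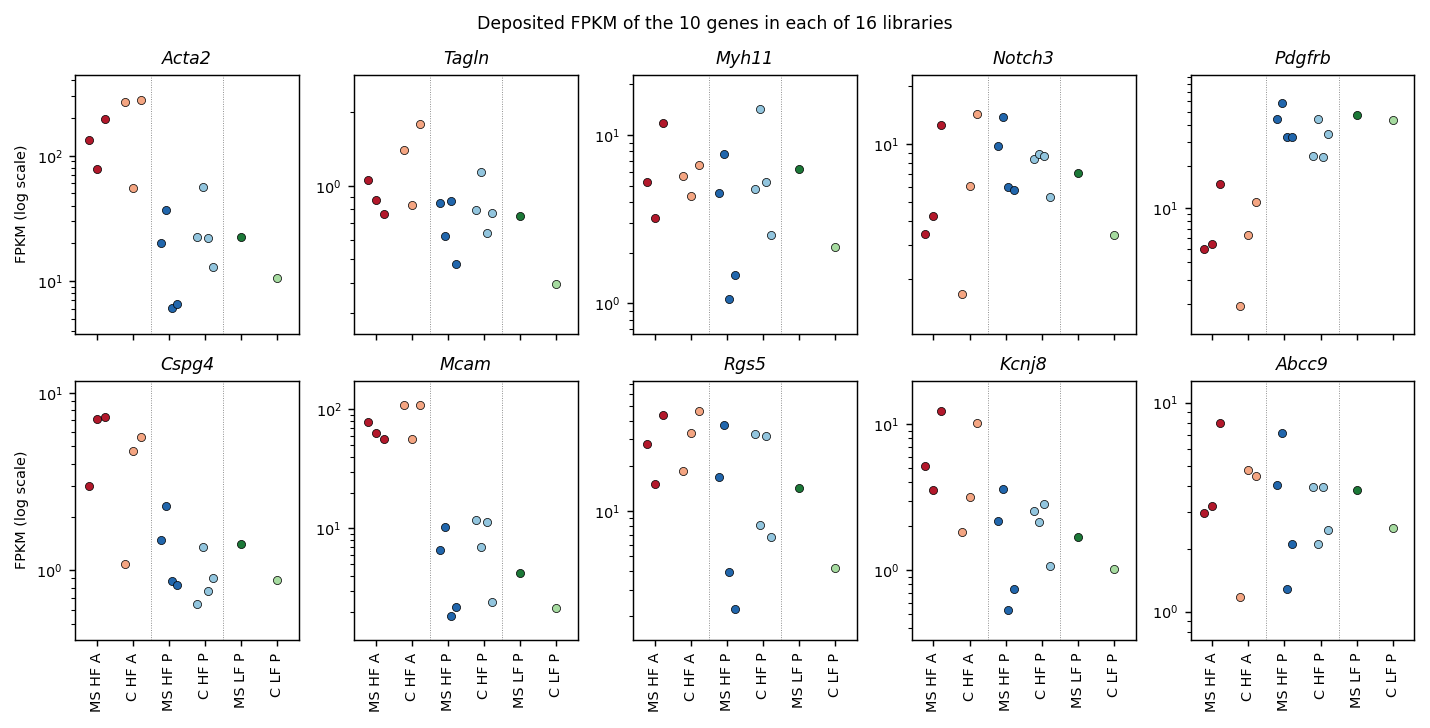
Deposited FPKM (log scale, a separate range for each gene) of the 10 genes, with 1 point per library and the 6 groups along the horizontal axis. Mcam lies at 56.9 to 109 in all 6 adipocyte libraries and at 1.85 to 11.9 in all preadipocyte libraries, and Pdgfrb is the reverse, at 1.94 to 14.8 in adipocyte and 23.6 to 58.4 in preadipocyte libraries.

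The contractile genes come first. Acta2 (ENSMUSG00000035783, chromosome 19, 34241090 to 34255336, minus strand, GRCm38) encodes smooth muscle alpha-actin, the thin filament protein by which mural cells and myofibroblasts are commonly stained. It had 135, 78.1 and 195 FPKM in MS_HF_A libraries and 270, 54.8 and 278 FPKM in C_HF_A libraries. In preadipocytes it had 19.98, 36.7, 6.07 and 6.57 FPKM in MS_HF_P libraries and 22.6, 56.6, 21.95 and 12.8 FPKM in C_HF_P libraries. C_HF_A library 2 was the lowest of the adipocyte libraries and lay just under the highest preadipocyte library, C_HF_P 2, so the ranges overlapped by that pair alone. Acta2 was 7.35-fold higher in adipocytes (log2 fold change 2.88 ± 0.50 SE, edgeR adjusted p = 0.000169).

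Myh11 (ENSMUSG00000018830, chromosome 16, 14194535 to 14291372, minus strand) encodes the smooth muscle myosin heavy chain, the most restricted marker of contractile smooth muscle. It had 5.28, 3.19 and 11.8 FPKM in MS_HF_A libraries and 5.69, 4.33 and 6.58 FPKM in C_HF_A libraries. Preadipocyte libraries had 4.51, 7.75, 1.06 and 1.48 FPKM (MS_HF_P) and 4.79, 14.3, 5.26 and 2.54 FPKM (C_HF_P). The adipocyte values lay inside the range of the preadipocyte values, and the log2 fold change was 0.33 ± 0.50 SE (edgeR adjusted p = 0.594). In control libraries alone the sign turned, with a log2 fold change of -0.35.

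The ratio of Acta2 to Myh11 within a library set the fractions apart. Since both genes are read in the same library, this ratio does not depend on how libraries are scaled. It was 25.5, 24.5 and 16.6 in MS_HF_A libraries and 47.4, 12.7 and 42.3 in C_HF_A libraries. In the 10 preadipocyte libraries it stayed between 3.59 and 5.74, although Acta2 itself varied 9.33-fold and Myh11 13.51-fold among them. On the log2 scale the ratio averaged 4.66 ± 0.74 (SD, n = 6) in adipocytes and 2.22 ± 0.17 (SD, n = 7, the near-identical pair averaged) in preadipocytes on the high-fat diet. The difference of 2.44 had a two-sided exact permutation p of 0.000583, the smallest that its 1716 arrangements allow, and an adjusted p of 0.00146 over 5 ratios. The 5 ratios, here and below, were chosen after the values were seen, from genes already compared singly. Their p-values therefore describe the gap and are no separate support.

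**Figure D2:**
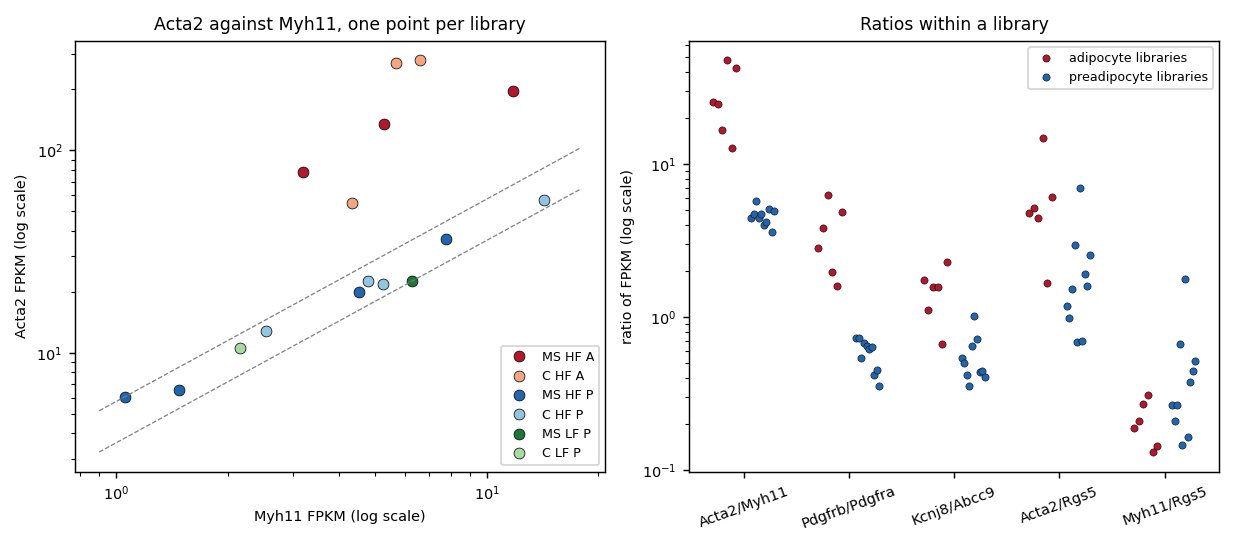
Left, Acta2 against Myh11 FPKM on log axes, 1 point per library, with dashed lines at the lowest and highest Acta2/Myh11 ratio of the preadipocyte libraries (3.59 and 5.74). Right, 5 ratios of FPKM within a library on a log scale, adipocyte libraries left of preadipocyte libraries. All 10 preadipocyte libraries follow a narrow diagonal, and all 6 adipocyte libraries lie above it.

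The other contractile genes showed the same mixture. Of 12 genes listed as smooth muscle contractile, 11 could be tested, 5 rose in adipocytes and 6 did not pass. The list's median log2 fold change was 0.9997, against -0.25 for all genes. The 4 largest changes were in Synpo2, an actin-bundling protein (log2 fold change 3.35 ± 0.37 SE), Actg2, the actin of visceral smooth muscle (3.06 ± 0.93 SE), Cnn1, the actin-binding calponin (2.31 ± 0.75 SE) and Des, the intermediate filament desmin (1.74 ± 0.35 SE). Synpo2 had 7.43 to 44.2 FPKM in adipocyte libraries and 0.759 to 2.93 FPKM in preadipocyte libraries, without overlap. Actg2 had 28.9, 3.21 and 12.5 FPKM in MS_HF_A libraries and 36.2, 2.48 and 42.2 FPKM in C_HF_A libraries. Among preadipocyte libraries it was 23.0 FPKM in C_HF_P library 2 and at most 2.01 FPKM in the other 9, and the same library had the highest Acta2 and Myh11 of its fraction. The 6 that were not called were Lmod1, a tropomodulin relative of smooth muscle (0.9997 ± 0.51 SE), Myl9, the regulatory myosin light chain (0.58 ± 0.36 SE), Tpm2, a tropomyosin (0.44 ± 0.32 SE), Myocd (0.37 ± 0.98 SE), Kcnmb1, a potassium channel subunit of smooth muscle (0.26 ± 0.91 SE), and Smtn, smoothelin (-0.44 ± 0.28 SE).

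Of 7 actin and transgelin paralogs 6 were tested, and Acta1, Actc1, Actg2 and Actb rose while none fell. Actg1, the other cytoplasmic actin (0.44 ± 0.21 SE), and Tagln2, a widely expressed transgelin (-0.09 ± 0.23 SE), did not pass. Acta1, the skeletal muscle alpha-actin, had 23.9 to 126 FPKM in adipocyte libraries and 0.329 to 5.37 FPKM in preadipocyte libraries (log2 fold change 5.95 ± 0.61 SE). Actc1, the cardiac alpha-actin, had a log2 fold change of 4.31 ± 0.86 SE and Actb, a cytoplasmic actin of all cells, 0.84 ± 0.31 SE. Markers of striated muscle moved with these actins. Of 7 listed, Acta1 among them, 5 rose and Tnnt3 and Actn3 did not pass, with a median log2 fold change of 2.95. Myh4 and Myh1, myosin heavy chains of fast skeletal muscle, had 6.22 ± 0.90 SE and 4.86 ± 0.93 SE, Mb, myoglobin, 2.95 ± 0.67 SE, and Ckm, muscle creatine kinase, 2.81 ± 0.56 SE. The 7 summed to 48.7 to 152 FPKM in adipocyte libraries and 5.45 to 29.9 FPKM in preadipocyte libraries, sums that include Acta1 itself. Striated muscle also makes desmin and Synpo2, and the part of its RNA in these differences was not tested. Acta2 shared none of its 50-base stretches with Acta1, Actc1, Actg2 or Actb and 0.326% of them with Actg1.

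Serum response factor and its coactivators, which drive smooth muscle actin genes, did not rise. Srf had a log2 fold change of -0.38 ± 0.17 SE (edgeR adjusted p = 0.0657) and Mkl2 of -0.12 ± 0.34 SE. Mkl1, a coactivator released by actin polymerisation, fell by 0.73 on the log2 scale (SE 0.26, adjusted p = 0.0231). Myocd, the smooth muscle coactivator myocardin, was at most 0.26 FPKM in any library, with a log2 fold change of 0.37 ± 0.98 SE.

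Tagln (ENSMUSG00000032085, chromosome 9, 45929619 to 45936058, minus strand) encodes transgelin, an actin-binding protein that is usually among the most abundant transcripts of smooth muscle. Here it stood at 1.06, 0.871 and 0.766 FPKM in MS_HF_A libraries and 1.41, 0.833 and 1.79 FPKM in C_HF_A libraries. It was 0.851, 0.623, 0.863 and 0.479 FPKM in MS_HF_P libraries and 0.796, 1.13, 0.638 and 0.776 FPKM in C_HF_P libraries, which overlapped the adipocyte values. Only 19 to 49 counts per library lay behind these levels, and Acta2 stood 65.8 to 255 times as high in adipocytes and 7.03 to 58.8 times as high in preadipocytes. In the GENCODE M21 annotation 67.9% of Tagln's 1988 exon bases are shared with genes on the opposite strand, 1241 with Gm48529 and 108 with Pcsk7. Whether counting used strand, and how reads in shared bases were assigned, is not given in the sources used here, so Tagln's level is uncertain, and the part of the overlap in these low counts was not tested. No other member shared more than 6.03% of its exon bases, the share of Notch3. The log2 fold change of Tagln between fractions was 0.48 ± 0.33 SE (edgeR adjusted p = 0.222).

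**Figure D3:**
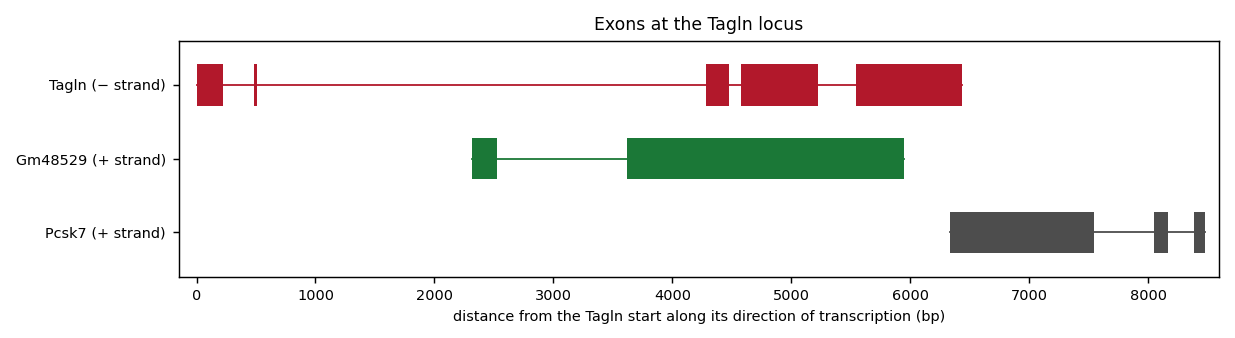
Exons (boxes) of Tagln and of the genes it overlaps on the opposite strand, drawn by distance in bases from the Tagln start in its direction of transcription. The 3 downstream exons of Tagln lie over Gm48529, and the end of the last exon over Pcsk7, which goes on beyond the right edge.

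Among the receptors, Pdgfrb (ENSMUSG00000024620, chromosome 18, 61045150 to 61085061, plus strand) was the member that was lower in adipocytes. It encodes platelet-derived growth factor receptor beta. It had 5.04, 5.44 and 14.8 FPKM in MS_HF_A libraries and 1.94, 6.34 and 10.95 FPKM in C_HF_A libraries. MS_HF_P libraries had 44.0, 58.4, 33.0 and 32.8 FPKM and C_HF_P libraries 23.9, 44.6, 23.6 and 34.4 FPKM. The fractions did not overlap. A gap of this direction was present in 21.9% of all genes tested, and a gap in either direction in 38.9%. Pdgfrb was 5.09-fold lower in adipocytes (log2 fold change -2.35 ± 0.37 SE, edgeR adjusted p = 6.95e-05).

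Its partner receptor Pdgfra, a marker of adipocyte progenitors, was 29.2-fold lower in adipocytes, at 0.985 to 3.98 FPKM in adipocyte libraries and 36.9 to 122 FPKM in preadipocyte libraries. The ratio of Pdgfrb to Pdgfra was therefore the higher in adipocytes, at 1.59 to 6.28 in adipocyte libraries and 0.354 to 0.732 in preadipocyte libraries. The mean log2 ratio was 1.67 ± 0.76 (SD, n = 6) in adipocytes and -0.71 ± 0.28 (SD, n = 7) in high-fat preadipocytes (two-sided exact permutation p = 0.000583, adjusted p = 0.00146). This ratio too was chosen after the values were seen. Both genes already differed between fractions by unlike amounts, so the p-value is no separate support. Of the ligands, Pdgfb, which endothelial cells make, was higher by 1.42 ± 0.42 SE on the log2 scale and Pdgfa by 0.99 ± 0.21 SE. Pdgfd fell by 1.93 (SE 0.32) and Pdgfc was at 0.15 ± 0.22 SE, which did not pass.

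Notch3 (ENSMUSG00000038146, chromosome 17, 32120820 to 32166880, minus strand), the Notch receptor of mural cells, did not separate the fractions. It had 3.42, 4.22 and 12.6 FPKM in MS_HF_A libraries and 1.66, 6.10 and 14.4 FPKM in C_HF_A libraries. It had 9.82, 13.8, 5.98 and 5.76 FPKM in MS_HF_P libraries and 8.40, 8.85, 8.69 and 5.32 FPKM in C_HF_P libraries. The adipocyte libraries held both the lowest and the highest value (log2 fold change -0.22 ± 0.41 SE, edgeR adjusted p = 0.669). Of the other Notch receptors, Notch2 fell by 1.86 (SE 0.33), Notch4, an endothelial receptor, rose by 1.99 ± 0.42 SE and Notch1 was at -0.07 ± 0.33 SE. Of 9 Notch ligands and targets, 4 rose, 2 fell and 3 did not pass. The largest changes were in Dll4, a ligand of arterial endothelium (2.03 ± 0.52 SE), Nrarp, a feedback inhibitor (1.72 ± 0.47 SE), Hes1, a general target (-1.66 ± 0.18 SE), and Jag2, a ligand (1.29 ± 0.45 SE). Heyl, the target most often tied to Notch3 in mural cells, was at -0.50 ± 0.36 SE and did not pass.

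Mcam (ENSMUSG00000032135, chromosome 9, 44134469 to 44142727, plus strand) encodes the adhesion molecule CD146 of pericytes, smooth muscle and endothelium. It had the largest difference of the 10 genes. It had 78.4, 63.6 and 57.0 FPKM in MS_HF_A libraries and 109, 56.9 and 109 FPKM in C_HF_A libraries. It had 6.53, 10.3, 1.85 and 2.21 FPKM in MS_HF_P libraries and 11.9, 6.96, 11.3 and 2.41 FPKM in C_HF_P libraries. Every adipocyte library lay above every preadipocyte library, and Mcam was 13.0-fold higher in adipocytes (log2 fold change 3.70 ± 0.42 SE, edgeR adjusted p = 4.26e-06). Such a separation upward held for 17% of all genes tested.

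Mcam is also an endothelial gene, and 11 of the 12 endothelial markers rose in adipocytes while 1 fell, with a median log2 fold change of 2.33. Among adipocyte libraries the endothelial sum was lowest in C_HF_A library 1 (218 FPKM) and highest in C_HF_A library 3 (855 FPKM). Mcam was 109 FPKM in both. The part of RNA from endothelial or other cells, adipocytes included, in the Mcam difference was not tested. Gm10687 (ENSMUSG00000097617), the antisense RNA gene that starts head to head with Mcam, was named after its values were seen. It had 8.28, 4.90 and 2.53 FPKM in MS_HF_A libraries and 21.2, 6.38 and 18.6 FPKM in C_HF_A libraries, against 0.0256 to 0.501 FPKM in the preadipocyte libraries. Its log2 fold change was 5.30 ± 0.58 SE, and both genes had their 2 highest libraries in C_HF_A 1 and 3. The shared 17 bases are 0.507% of the exon bases of Mcam.

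Cspg4 (ENSMUSG00000032911, chromosome 9, 56865033 to 56899870, plus strand) encodes the NG2 proteoglycan of pericytes and glial progenitors. It had 2.98, 7.16 and 7.32 FPKM in MS_HF_A libraries and 1.08, 4.68 and 5.63 FPKM in C_HF_A libraries. It had 1.49, 2.32, 0.876 and 0.828 FPKM in MS_HF_P libraries and 0.650, 1.35, 0.764 and 0.909 FPKM in C_HF_P libraries. C_HF_A library 1 alone fell among the preadipocyte values. Cspg4 was 4.11-fold higher in adipocytes (log2 fold change 2.04 ± 0.36 SE, edgeR adjusted p = 0.000205).

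Rgs5 (ENSMUSG00000026678, chromosome 1, 169655501 to 169695813, plus strand) encodes a regulator that switches off G protein signalling and marks pericytes. It had 28.1, 15.3 and 43.8 FPKM in MS_HF_A libraries and 18.4, 33.0 and 46.1 FPKM in C_HF_A libraries. In preadipocytes it had 16.9, 37.3, 3.96 and 2.23 FPKM in MS_HF_P libraries and 32.8, 8.10, 31.7 and 6.77 FPKM in C_HF_P libraries. MS_HF_P library 2 and the near-identical C_HF_P libraries 1 and 3 lay above the adipocyte median of 30.6 FPKM, and 4 of the other 5 lay below all adipocyte libraries. Its log2 fold change of 1.01 ± 0.56 SE missed the threshold (edgeR adjusted p = 0.128). The call depended on few libraries, since the adjusted p was 0.0241 without MS_HF_P library 2 and 0.0401 without the near-identical C_HF_P pair. Limma on log2(FPKM + 1) gave an adjusted p of 0.0421. Of its 5 listed relatives Rgs3 rose by 1.49 ± 0.22 SE, and Rgs4 (1.22 ± 0.53 SE), Rgs16 (0.07 ± 0.27 SE), Rgs2 (-0.74 ± 0.34 SE) and Rgs1 (-0.87 ± 0.64 SE) did not pass.

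Kcnj8 and Abcc9 lie 16247 bp apart on the minus strand of chromosome 6 and encode the pore (Kir6.1) and the regulatory subunit (SUR2) of the ATP-sensitive potassium channel of mural cells. Kcnj8 (ENSMUSG00000030247, 142564837 to 142571614) had 5.18, 3.52 and 12.4 FPKM in MS_HF_A libraries and 1.84, 3.19 and 10.1 FPKM in C_HF_A libraries. It had 2.18, 3.61, 0.535 and 0.747 FPKM in MS_HF_P libraries and 2.54, 2.13, 2.86 and 1.07 FPKM in C_HF_P libraries. The ranges overlapped, and Kcnj8 was 3.26-fold higher in adipocytes (log2 fold change 1.71 ± 0.50 SE, edgeR adjusted p = 0.00817). In control libraries alone the log2 fold change of 1.35 did not pass (edgeR adjusted p = 0.129).

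Abcc9 (ENSMUSG00000030249, 142587862 to 142702315) had 2.97, 3.19 and 7.96 FPKM in MS_HF_A libraries and 1.17, 4.76 and 4.44 FPKM in C_HF_A libraries. It had 4.01, 7.17, 1.28 and 2.12 FPKM in MS_HF_P libraries and 3.97, 2.10, 3.95 and 2.46 FPKM in C_HF_P libraries. The fractions overlapped over nearly their whole range (log2 fold change 0.36 ± 0.41 SE, edgeR adjusted p = 0.467). The ratio of Kcnj8 to Abcc9 was 0.670 to 2.28 in adipocyte libraries and 0.353 to 1.01 in preadipocyte libraries. On the log2 scale it averaged 0.47 ± 0.62 (SD, n = 6) in adipocytes and -0.91 ± 0.51 (SD, n = 7) in high-fat preadipocytes (two-sided exact permutation p = 0.00291, adjusted p = 0.00486). The channel's pancreatic paralogs Kcnj11 and Abcc8 were at most 0.0776 FPKM in any library and too low to test.

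Acta2 and Myh11 were also set against Rgs5. Acta2/Rgs5 was 1.66 to 14.6 in adipocyte libraries and 0.689 to 6.98 in preadipocyte libraries, and its mean log2 ratio was higher by 1.53 in adipocytes (two-sided exact permutation p = 0.0286, n = 6 and 7, adjusted p = 0.0357). With single libraries left out, the adjusted p over the 5 ratios ran from 0.00812 to 0.0758 (exact permutation), and the call held in 4 of 13 cases, those without C_HF_A 2, MS_HF_P 4, C_HF_P 2 or C_HF_P 4. Myh11/Rgs5 was 0.131 to 0.309 in adipocyte libraries and 0.146 to 1.76 in preadipocyte libraries, and its log2 difference of -0.91 did not pass (exact permutation p = 0.101, n = 6 and 7), nor did it in any of the 13 cases (lowest adjusted p = 0.0519, exact permutation).

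Other pericyte genes split between directions. Of 13 listed, 5 rose, 4 fell and 4 did not pass in adipocytes, with a median log2 fold change of 0.54. The 4 largest changes were all upward. Rasl12, a small GTPase, had a log2 fold change of 3.56 ± 0.33 SE and Cox4i2, a respiratory chain subunit of pericytes and smooth muscle, 2.52 ± 0.65 SE. Higd1b, a mitochondrial pericyte marker, had 2.03 ± 0.63 SE and Gja4, a gap junction protein of arterial vessels, 1.93 ± 0.47 SE. Those that fell were Gucy1a1 and Gucy1b1, the subunits of the nitric oxide receptor, with log2 fold changes of -1.37 ± 0.45 SE and -1.17 ± 0.32 SE, Ednra, an endothelin receptor (-1.22 ± 0.25 SE), and Vtn, the matrix protein vitronectin (-1.09 ± 0.38 SE).

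**Figure D4:**
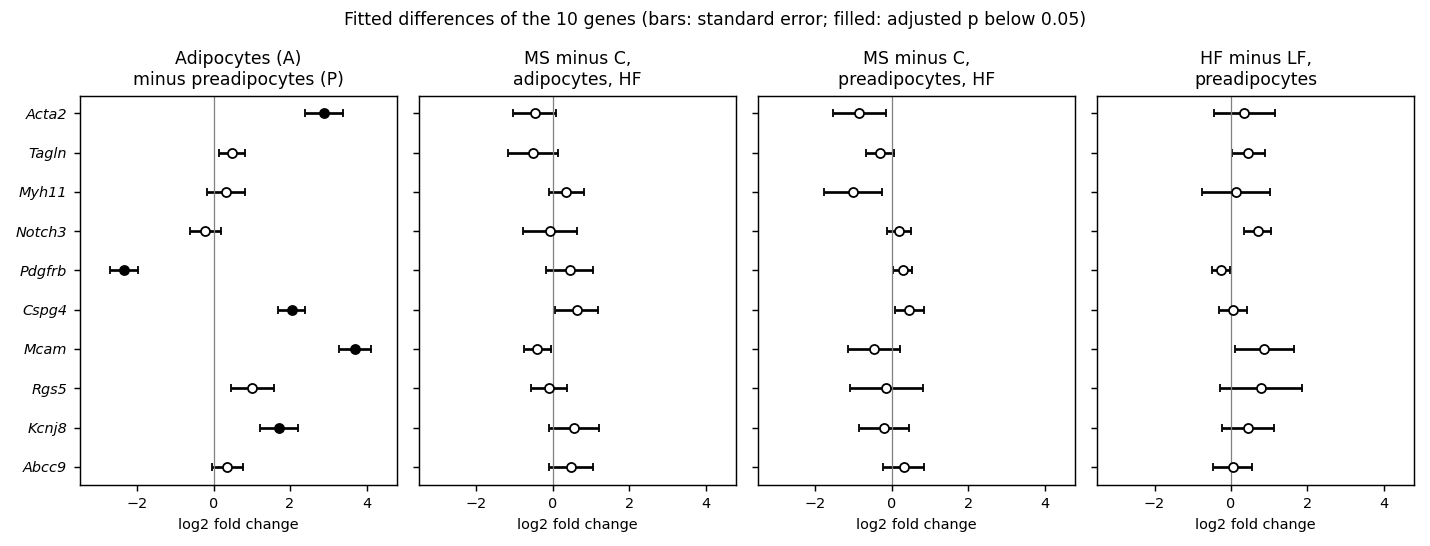
Fitted log2 fold changes of the 10 genes (points) with standard errors (bars) for adipocytes minus preadipocytes, for MS minus C in each fraction and for the high-fat minus the low-fat diet. Filled points passed an adjusted p of 0.05, and 5 do so between the fractions and 0 in the other comparisons.

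Early life stress moved none of the 10 genes past the threshold in either fraction. In high-fat preadipocytes the edgeR test called 0 of 17129 genes (0%), with 496 below an unadjusted p of 0.05, and DESeq2 called 4, of which none was a member. Among the members the widest log2 fold changes, MS minus C, were -1.01 ± 0.76 SE for Myh11 and -0.86 ± 0.70 SE for Acta2. Acta2 averaged 17.3 ± 14.4 FPKM (SD, n = 4) in MS_HF_P libraries and 30.6 ± 23.0 FPKM (SD, n = 3) in C_HF_P libraries. Myh11 averaged 3.70 ± 3.11 FPKM (n = 4) in MS_HF_P libraries and 7.28 ± 6.18 FPKM (n = 3) in C_HF_P libraries. The groups overlapped in each of these genes. Rgs5 averaged 15.1 ± 16.2 FPKM (n = 4) in MS_HF_P libraries and 15.7 ± 14.3 FPKM (n = 3) in C_HF_P libraries, a log2 fold change of -0.15 ± 0.95 SE. Pdgfrb, with the smallest standard error, was at 0.29 ± 0.25 SE.

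MS_HF_P libraries 3 and 4 held the low end of these values. At least 1 of them was the lowest of the 10 preadipocyte libraries in Acta2, Myh11, Mcam, Rgs5, Kcnj8 and Abcc9. Library 3 was among the 2 lowest in 6 members and library 4 in 5. For no library was the share of all genes at such an extreme counted. MS_HF_P libraries 3 and 4 differed from MS_HF_P libraries 1 and 2 in 62.4% to 70.4% of genes. Libraries 3 and 4 also held the most macrophage marker RNA of their fraction, at 2917 and 3508 FPKM in sum. Their endothelial sums were the lowest, at 55.7 and 52.3 FPKM, of which Tek made up 17.8 and 13.4 FPKM. MS_HF_P library 2, highest of its fraction in 6 members, had 46.6 FPKM of Tek in a sum of 77.1 FPKM. It was lowest in Pecam1, Cdh5, Tie1, Emcn, Egfl7, Flt1 and Ptprb, and library 3 or 4 in Tek, Cldn5, Kdr, Sox18 and Esam. MS_HF_P libraries 3 and 4 were both left out in an alternative chosen after the values were seen. Rgs5 then turned to 0.68, Mcam to 0.18 and Kcnj8 to 0.47 on the log2 scale, and again no member passed. The part of the mix of cells in these values was not tested. Pdgfrb, at 33.0 and 32.8 FPKM in these libraries, was lower there than in the other preadipocyte libraries except the near-identical C_HF_P libraries 1 and 3, at 23.9 and 23.6 FPKM.

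**Figure D5:**
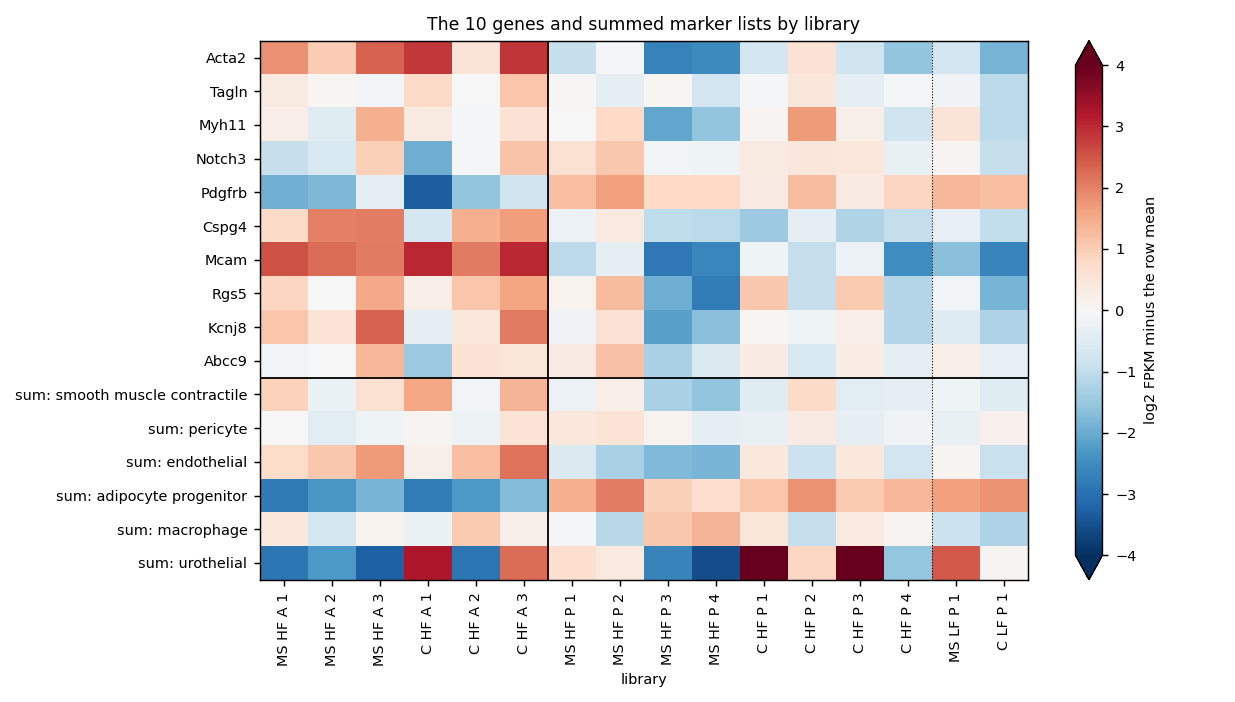
Each row shows log2 FPKM minus the row's mean over 16 libraries, for the 10 genes (top) and for summed FPKM of 6 marker lists (bottom), with colours capped at a difference of 4 either way. MS_HF_P libraries 3 and 4 are low in Acta2, Myh11, Mcam, Rgs5 and Kcnj8 and high in the macrophage sum. They are also low in the endothelial sum, to which Tek contributes much in preadipocyte libraries.

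In mature adipocytes the test called 0 of 14485 genes (0%) between MS and C, with 417 below an unadjusted p of 0.05, and DESeq2 called 9, of which none was a member. Log2 fold changes ran from -0.52 ± 0.65 SE for Tagln and -0.47 ± 0.56 SE for Acta2 to 0.55 ± 0.66 SE for Kcnj8 and 0.62 ± 0.56 SE for Cspg4. Mcam averaged 66.3 ± 10.9 FPKM (SD, n = 3) in MS_HF_A libraries and 91.6 ± 30.0 FPKM (n = 3) in C_HF_A libraries, a log2 fold change of -0.41 ± 0.35 SE. Acta2 averaged 136 ± 58.6 FPKM (n = 3) in MS_HF_A libraries and 201 ± 127 FPKM (n = 3) in C_HF_A libraries. C_HF_A libraries 1 and 3 had the highest Acta2, Mcam, Cnn1 and Actg2 of all libraries. They also held urothelial marker RNA, at 136 and 67.8 FPKM in sum, against at most 2.90 FPKM in the other 4 adipocyte libraries. In preadipocytes these genes differed from each other in this. C_HF_P libraries 1 and 3 held the most urothelial marker RNA of all, at 351 and 347 FPKM. They had the highest Mcam of their fraction, at 11.9 and 11.3 FPKM, with 1.63 and 1.84 FPKM of Actg2. C_HF_P library 2, with 25.4 FPKM of urothelial marker RNA, had the highest Acta2, Cnn1 and Actg2 of the fraction, at 56.6, 8.80 and 23.0 FPKM. Leaving out C_HF_A libraries 1 and 3 leaves 1 control adipocyte library, which is assumed to vary like the MS libraries. Acta2 then turned to 1.28 and Mcam to 0.17 on the log2 scale. The part of RNA from urothelial tissue in these values was not tested.

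C_HF_A library 1 was the lowest adipocyte library in Notch3, Pdgfrb, Cspg4, Kcnj8 and Abcc9, while its Acta2 was 270 FPKM. The other listed pericyte genes Cox4i2, Vtn, Gja4, Gucy1a1, Gucy1b1, Foxs1, Rasl12 and Ednra were also lowest there among adipocyte libraries. Higd1b, Ndufa4l2, Steap4, Heyl and Nrip2 were not. The list's sum of 189 FPKM was the second highest in a range of 131 to 255 FPKM over the adipocyte libraries. Steap4 alone made up 146 FPKM of it. MS_HF_A library 3 was the highest in Myh11, Pdgfrb, Cspg4, Kcnj8 and Abcc9. The test of whether the stress difference itself changed with the fraction called 0 of 17948 genes (0%), with 873 below an unadjusted p of 0.05 and 3 called by DESeq2, of which none was a member. Its largest value among the members was 1.34 ± 0.997 SE for Myh11 on the log2 scale.

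Diet was compared within preadipocytes, with 8 high-fat libraries (7 after the near-identical pair was summed) and 2 low-fat libraries. The edgeR test called 0 of 18468 genes (0%), with 2360 below an unadjusted p of 0.05, and DESeq2 called 422, of which none was a member. Of the 10 log2 fold changes, high-fat minus low-fat, 9 were above 0, with a median of 0.39 against 0.02 for all genes. Both moved with single libraries. With the C_LF_P library left out, 4 of the 10 were above 0 and the median was -0.06. With MS_HF_P library 2 left out, 5 were above 0 and the median was 0.058. The median was 1.16 without the MS_LF_P library and 0.23 without C_HF_P library 2, with 9 and 7 above 0. Limma on log2(FPKM + 1) and on log2(FPKM + 0.1) gave medians of 0.19 and 0.22, with 7 above 0 in each. The widest were 0.87 ± 0.77 SE for Mcam, 0.78 ± 1.06 SE for Rgs5 and 0.70 ± 0.36 SE for Notch3. The MS_LF_P library had 22.5 FPKM of Acta2, 6.27 of Myh11, 47.2 of Pdgfrb, 1.41 of Cspg4, 4.25 of Mcam, 14.2 of Rgs5, 1.70 of Kcnj8 and 3.81 of Abcc9. The C_LF_P library had 10.6 FPKM of Acta2, 2.15 of Myh11, 43.3 of Pdgfrb, 0.887 of Cspg4, 2.16 of Mcam, 4.2 of Rgs5, 1.02 of Kcnj8 and 2.51 of Abcc9. All of these lay inside the range of the high-fat preadipocyte libraries. Tagln was 0.749 FPKM in MS_LF_P and 0.395 FPKM in C_LF_P, and Notch3 was 7.04 FPKM in MS_LF_P and 3.37 FPKM in C_LF_P. The C_LF_P values of these genes lay below all high-fat preadipocyte libraries, and the MS_LF_P values lay inside their range. Tagln rested on 19 counts in C_LF_P, and the share of all genes with such a gap was not counted. With 1 library for each treatment there is no test of stress on the low-fat diet. MS_LF_P was the higher in all 10 genes, but the share of all genes higher there was not counted. The other pericyte genes summed to 142 FPKM in MS_LF_P and 197 FPKM in C_LF_P, the opposite direction. The contractile list summed to 85.7 and 69.2 FPKM and the endothelial markers to 205 and 102 FPKM.

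Within groups the SD of log2 CPM lay above the median of 0.616 over all genes in 9 of the 10 members, from 0.772 for Pdgfrb to 1.29 for Rgs5, and was 0.353 for Tagln. By per-length level, the median order in adipocytes was Acta2 (165 FPKM), Mcam (71.0), Rgs5 (30.6), Pdgfrb (5.89), Myh11 (5.48), Notch3 (5.16), Cspg4 (5.15), Kcnj8 (4.35), Abcc9 (3.82) and Tagln (0.966). Neighbours in this order overlapped over libraries, except Rgs5, which lay below Mcam and above Pdgfrb without overlap. In preadipocytes Pdgfrb came first (38.8 FPKM), before Acta2 (20.97), Rgs5 (11.1), Notch3 (7.72), Mcam (5.39), Myh11 (4.65), Abcc9 (3.16), Kcnj8 (1.91), Cspg4 (0.898) and Tagln (0.763), again with overlap between neighbours.

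Nearest profiles were found among 20932 genes by the root mean square difference of centred log2 CPM over 15 libraries, as a description. Acta2 was nearest to Synpo2 (0.60), Reep1 (0.65) and Hist1h2bn (0.71), against its own SD of 1.85. Myh11 was nearest to Sorbs2 (0.48), Lmod1 (0.48) and Jph2 (0.51), with an SD of 1.02. Rgs5 was nearest to Gja4 (0.59), Sh3tc2 (0.61) and to the member Kcnj8 (0.63), with an SD of 1.38. Pdgfrb was nearest to Dchs1 (0.29), Map1b (0.30) and Gm38394 (0.30), with an SD of 1.48.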

How the data were processed

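Total RNA of 16 libraries was sequenced in pairs of reads. Per the submitters' processing notes, the tools were STAR 2.6.1d, DESeq2 1.20.0 and edgeR 3.24.3 and the build GRCm38/mm10. The deposited counts are whole, unscaled reads per gene. The deposited FPKM are scaled by gene length and, by the authors, by 1 factor per library. Whether counting used strand is not given in the sources used here. From the counts, edgeR 4.0.16 (R 4.3.3; TMM factors, its own filter on low counts, robust quasi-likelihood F test, Benjamini-Hochberg threshold 0.05) gave the differences, adjusted over all genes tested, and was tested on simulated data. Early life treatment was a covariate for fraction and diet. C_HF_P libraries 1 and 3 were summed in fits and averaged for mean and SD. FPKM gave levels and ratios. The ratios were compared by exact permutation over libraries. Alternatives used limma 3.58.1 on log2(FPKM + 1) and log2(FPKM + 0.1), DESeq2 1.42.0, other scaling, filters and left-out libraries. Overlaps were read from GENCODE M21 and promoters from RefSeq (250 bases before and 50 after the start). The 10 members were all named. Of each companion list up to 4 called genes with the largest changes were named, or all genes of a list of 5 or fewer. Of some lists, genes that fell or did not pass were named as well. The called rises in adipocytes of the contractile gene Mylk (log2 fold change 1.72 ± 0.36 SE) and the pericyte gene Nrip2 (1.22 ± 0.46 SE) fell outside that limit. The members and lists were chosen with earlier results of these data known. Totals of 14182130 to 23368821 counts leave genes with few counts, such as Tagln, only coarsely measured.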

Additional observations from a re-analysis of the deposited data

Results flagged for a closer look

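The FPKM ratio of Myh11 to Rgs5 among the 4 MS_HF_P libraries was 0.266, 0.208, 0.266 and 0.662. Library 4 stood apart, its gap to the nearest library being 0.871 of the group's range, above Dixon's critical value for 4 samples. Its Rgs5 was the lowest of all libraries, at 2.23 FPKM. Chance marks about 1 in 20 such groups, and 15 genes and ratios were examined in this group. The ratio was chosen after the values were seen.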

How the results depend on the processing

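Besides the calls of Rgs5, Kcnj8 and the Rgs5 ratios given above, the settings below are those that turned a sign or moved a count of genes by over 1.5 times. Between fractions, control libraries alone called 5998 genes and turned Myh11 to -0.35, and omitting MS_HF_P libraries 3 and 4 turned Myh11 to -0.078. Genes called for stress in preadipocytes came to 4 with DESeq2 and 2 with the replicate block together with the pair kept separate. Stress in adipocytes gave 51 genes with no filter and 9 with DESeq2, and 0 to 9 leaving out single libraries. The interaction gave 3 with DESeq2. Diet gave 422 with DESeq2, 51 with that block and the pair kept separate, 1 with no filter and 1 with limma on FPKM + 0.1, and 0 to 1 leaving out single libraries.

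Of stress in preadipocytes, omitting MS_HF_P 3 and 4 gave Mcam 0.18, Rgs5 0.68 and Kcnj8 0.47. Of stress in adipocytes, Notch3 was 0.097 and 0.038 with limma (FPKM + 0.1 and + 1), and without C_HF_A 1 and 3 Tagln was 0.064, Notch3 0.11, Mcam 0.17, Acta2 1.28 and Abcc9 -0.056. The interaction of Rgs5 was 0.050 with the 1 CPM filter, 0.15 unfiltered, 0.28 and 0.19 with limma and 0.34 with the pair kept separate. That of Mcam was -0.051 with DESeq2, -0.049 with RLE factors, -0.0088 with upper quartile factors and -0.00949 with limma on FPKM + 1. Omitting MS_HF_P 3 and 4 gave interactions of -0.48 for Abcc9, -0.65 for Mcam, -0.31 for Cspg4, -0.12 for Pdgfrb and -0.35 for Acta2, and without C_HF_A 1 and 3 they were -0.18 for Cspg4, -0.35 for Abcc9 and 0.42 for Tagln. Of diet, limma (FPKM + 0.1 and + 1) gave Cspg4 -0.025 and -0.000799 and Abcc9 -0.12 and -0.066.

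Leaving out single libraries, log2 fold changes between fractions ran from -0.080 to 0.75 for Myh11 and -0.58 to 0.066 for Notch3. For stress in preadipocytes they ran from -0.077 to 0.34 (Notch3), -1.01 to 0.14 (Mcam), -1.07 to 0.98 (Rgs5), -0.79 to 0.12 (Kcnj8) and -0.22 to 0.65 (Abcc9). For stress in adipocytes they ran from -0.32 to 0.72 (Myh11), -0.92 to 0.79 (Notch3), -0.26 to 1.02 (Pdgfrb), -0.53 to 0.23 (Rgs5), -0.15 to 1.505 (Kcnj8) and -0.15 to 0.83 (Abcc9). Interactions ran from -0.40 to 1.04 (Acta2), -0.38 to 0.077 (Tagln), -1.12 to 0.61 (Notch3), -0.53 to 0.77 (Pdgfrb), -0.25 to 0.55 (Cspg4), -0.55 to 0.62 (Mcam), -1.11 to 0.96 (Rgs5) and -0.49 to 0.71 (Abcc9). Diet ran from -0.42 to 1.52 (Acta2), -0.076 to 1.15 (Tagln), -0.80 to 1.75 (Myh11), -0.11 to 0.16 (Cspg4) and -0.22 to 0.20 (Abcc9). The cause was not tested.

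Replicate numbers were not taken to pair the libraries. Deviations of same-numbered MS_HF_P and C_HF_P libraries correlated at 0.16, 0.33, -0.07 and 0.18, and different-numbered ones at -0.30 to 0.21. The highest, 0.33, came from a same-numbered pair, so pairing of preadipocyte libraries was not settled. Same-numbered adipocyte libraries correlated at 0.03, -0.25 and -0.04, and different-numbered ones at -0.19 to 0.23. Between fractions same-numbered libraries correlated at -0.18 to 0.14 and different-numbered ones at -0.08 to 0.11. With the number as a block and the C_HF_P pair kept separate, Kcnj8 between fractions was 1.24 (edgeR adjusted p = 0.1001) and was not called. With both changes Abcc9 was -0.053 for stress in preadipocytes, Rgs5 0.44 for the interaction and Cspg4 -0.13 for diet. For stress in adipocytes, where the pair plays no part, the block gave Notch3 0.14.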
